A study of Rattus norvegicus with 24 samples.

Results

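The 36 genes described here belong to the ATF4 arm of the integrated stress response, and they were followed in the livers of rats given metformin or vehicle. They were chosen by name, as stress regulators, amino acid enzymes and cytosolic aminoacyl-tRNA synthetases, from 22093 genes that have a probe set with a single symbol. All 36 were on the array, and all 36 lay above the intensity floor in all 24 arrays, so no member entered the test through 1 group alone. The animals were male RccHan Wistar rats, 7 to 8 weeks of age, given 800 mg/kg metformin, a biguanide used against type 2 diabetes, or its vehicle of ethanol, Kolliphor HS 15 and tap water by daily gavage. Livers were taken after 1, 3 or 14 days of dosing, which gives metformin and control groups on each day with 4 arrays each and 1 rat per array. The design text states 5 animals per group, and 4 per group were analysed here. Every group is whole liver of otherwise untreated animals with free access to chow, housed in cages of 2 or 3 rats that the labels do not tie to single animals. Levels below are log2 of the deposited intensity of a gene's probe set, and the values of a group are listed in the order of its replicates 1 to 4. A level of 1 probe set was not compared with that of another, since the intensity depends on the probes.

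The integrated stress response starts when a stress-sensing kinase phosphorylates the alpha subunit of the translation factor eIF2, which slows most protein synthesis while the mRNA of the transcription factor ATF4 is translated more. ATF4 pairs with C/EBP-family partners on composite DNA elements and turns on genes for amino acid synthesis, amino acid transport, the charging of tRNA and feedback inhibitors of the response. ATF4 protein is set largely by translation, so the Atf4 mRNA measured here is not a direct readout of it. In liver the pathway is best known from dietary amino acid shortage, endoplasmic reticulum stress and inhibition of the mitochondrial respiratory chain.

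Promoters of the members held the core of the C/EBP-ATF element, TGATGNAA on either strand, more often than promoters in general. The members were chosen as genes of the ATF4 response, so this excess describes the list and is not a result about metformin. RefSeq windows of 300 bases (250 before and 50 after the annotated start, build GRCr8) were found for 32 members, and Atf3, Eif4ebp1, Aldh18a1 and Gars1 had none in the table used. The motif stood in 12 of these 32 windows (37.5%), and in 1332 of all 33469 windows (3.98%). Among the members called higher in metformin livers over the 3 days, 6 of 11 windows held it, and among the other members 6 of 21 did. A match describes letters in the window and is not a measured binding site. The stretches below are shown for the 6 called members and for Trib3 and Chac1, which hold the same letters and were not called. Each is written 5′ to 3′ along the gene's strand, and capitals mark the motif, which reads TTNCATCA where it lies on the opposite strand.
Nupr1 (chr1:190645933-190645972, minus strand): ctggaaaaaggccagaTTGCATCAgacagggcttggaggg
Nars1 (chr18:60275773-60275812, minus strand): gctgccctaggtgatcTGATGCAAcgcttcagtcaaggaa
Iars1 (chr17:15193653-15193692, minus strand): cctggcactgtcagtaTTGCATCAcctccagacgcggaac
Mars1 (chr7:65023747-65023786, minus strand): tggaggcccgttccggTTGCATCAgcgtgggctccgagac
Cars1 (chr1:208225329-208225368, minus strand): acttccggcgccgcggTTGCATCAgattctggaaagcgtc
Yars1 (chr5:146820185-146820212, plus strand): gagctacgagctcagcTGATGCAAcctg
Trib3 (chr3:161275531-161275570, minus strand): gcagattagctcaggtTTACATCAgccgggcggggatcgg
Chac1 (chr3:126795948-126795987, plus strand): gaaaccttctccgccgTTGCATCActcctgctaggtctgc
In Nars1, Mars1, Trib3 and Iars1 the first capital lies 14, 17, 21 and 24 bases before the annotated start on which the window was built. In Nupr1 it lies 55 bases before it and in Chac1 167 bases before it. In Cars1 and Yars1 it lies 17 and 38 bases after the start. For Mars1, Iars1 and Cars1 the annotated gene begins further upstream than that start (at 65023880, 15193716 and 208225425), so these matches lie inside the annotated gene. The other members with the motif were Aars1, Tars1, Pycr1 and Pck2, of which none was called, and Aars1 held it at 2 places.

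The arrays resembled each other, and 1 control rat stood apart in these genes. Array medians lay between 4.80 and 5.11 on the log2 scale, and arrays of a group correlated with r of 0.989 or more across genes. Of 8 hepatocyte markers 7 were on the array, all above the floor, with a summed intensity of 2816250 to 3250590 over the 24 arrays. Pancreatic acinar markers summed to 213.8 to 324.5. Replicate 1 of the day 1 control group was the highest of its group for 28 of the 36 members, and replicate 4 of that group was the lowest for 19. In the day 1 metformin group, replicate 4 was the highest for 22 members and replicate 1 the lowest for 19. No label sets these rats apart, so all were kept, and day 1 medians are also given with each of these rats left out.

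Averaged over the 3 days, 12 of the 36 members rose in metformin livers and none fell. They were Nupr1 and Atf5 among the transcription regulators, Asns and Psph among the amino acid enzymes, and 8 of the 12 synthetases. Of all 19686 genes tested, 635 were called in this comparison (3.23%), and 550 were called higher (2.79%). The log2 difference lay above 0 for 34 of the 36 members, with a median of 0.214, against -0.0046 over all genes. At an unadjusted p under 0.05, 21 members were higher and 1 was lower, where 10.5% and 5.45% of all genes were. A gene was called when the Benjamini-Hochberg adjusted p of the limma fit over all genes tested was below 0.05. In whole liver, fewer cells of a type and less RNA per cell cannot be told apart.

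Single days gave few calls among the members. On day 1 none of the 36 passed, with 0.0152% of all genes called (3 genes), and 8 members were higher at an unadjusted p under 0.05 in limma, where 5.75% of all genes were. On day 3 Nupr1 passed, with 0.254% of all genes called (50 genes), and 19 members were higher at an unadjusted p under 0.05, where 7.39% of all genes were. On day 14 Nars1 was called higher and Sesn2 lower, with 3.29% of all genes called (648 genes). At an unadjusted p under 0.05, 10 members were higher and 1 was lower that day, where 9.49% and 7.35% of all genes were. The members' median log2 difference was 0.156 on day 1, 0.373 on day 3 and 0.185 on day 14, against 0.0173, -0.0309 and 0.0102 over all genes. It was above 0 for 25 members on day 1, for 33 on day 3 and for 29 on day 14. Without replicate 1 of the day 1 controls the day 1 median was 0.244, and 18 members were higher at an unadjusted p under 0.05, where 5.38% of all genes were. Other rats moved the day 1 median the other way. Leaving out metformin replicate 4 gave 0.0958, leaving out control replicate 2 gave 0.0651 and leaving out control replicate 4 gave 0.101. In these fits 4, 5 and 3 members were higher at an unadjusted p under 0.05, where 3.72%, 3.94% and 6.19% of all genes were. Without metformin replicate 1 the day 1 median was 0.213, with 12 members higher at that threshold, where 6.71% of all genes were.

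**Figure D1:**
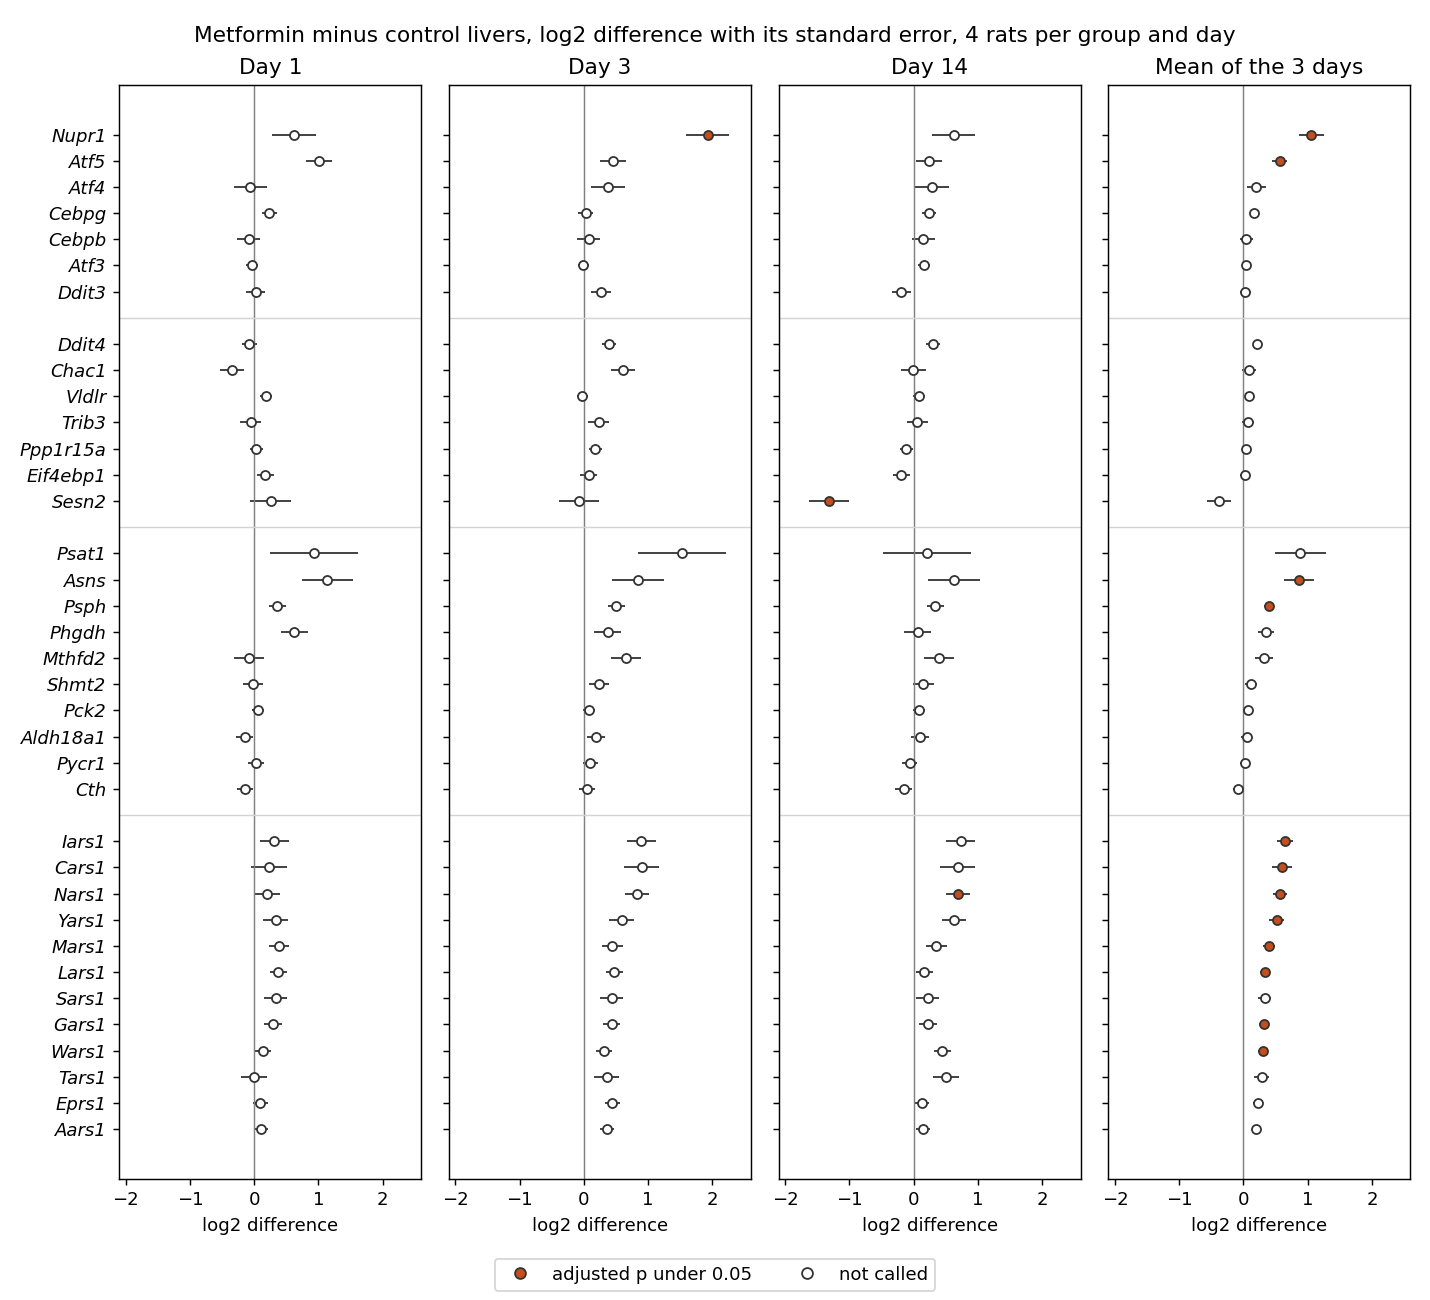
Log2 difference of metformin minus control livers for the 36 members, with 1 panel per day and 1 for the mean of the 3 days. Points are estimates with standard errors from limma, filled where the adjusted p was below 0.05, and genes are grouped by role and ordered by the mean. In the last panel 34 of 36 points lie right of 0, and 12 are filled.

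Groups that did not overlap were counted as a second description. On day 1 all 4 metformin values lay above all 4 control values for 1 member, Atf5, and for 3.46% of all genes. On day 3 this held for 18 members and for 3.68% of all genes. On day 14 it held for 10 members and for 5.07% of all genes. All 4 metformin values lay below all 4 control values on day 14 for 2 members, Sesn2 and Ppp1r15a, and for 3.34% of all genes. Atf5, Nupr1, Asns, Mthfd2, Cars1, Nars1, Iars1, Yars1 and Mars1 lay above on at least 2 days, and no member did on all 3. The share of all genes that did so on several days is not given here, so these counts cannot be judged against it. Mthfd2 and Ppp1r15a had low levels, with means of 5.02 and 4.98 over the 24 arrays, near the array medians of 4.80 to 5.11.

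Among the 7 transcription factors and regulators, Nupr1 and Atf5 rose over the 3 days, while Atf4 itself and Ddit3 did not pass the test. Nupr1 encodes a small stress-induced chromatin protein. On day 1 Nupr1 stood at 11.03, 11.62, 11.76 and 12.03 in metformin rats, against 12.43, 10.48, 10.74 and 10.31 in control rats. By day 3 its levels were 13.08, 12.42, 12.38 and 12.48 in metformin rats, against 10.47, 11.34, 10.10 and 10.74 in control rats. After 14 days they were 11.43, 11.38, 11.83 and 11.67 in metformin rats, against 10.75, 10.81, 11.24 and 11.03 in control rats. The day 3 and day 14 groups did not overlap, and on day 1 the control replicate 1 was the highest of all 8 rats. The log2 change was 1.93 ± 0.34 (SE, adjusted p = 0.0192) on day 3, a 3.8-fold difference, and 1.06 ± 0.19 (SE, adjusted p = 0.00499) over the 3 days, a 2.08-fold difference. On days 1 and 14 alone it was 0.62 and 0.62, neither of which passed (adjusted p = 0.694 and 0.373). A second Nupr1 probe set differed by 1.78 on day 3 and by 1.00 over the 3 days on the log2 scale, and with every probe set tested the first did not pass (adjusted p = 0.0672) and the second did (adjusted p = 0.0227). In that fit the day 3 call of the probe set reported here was lost too.

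Atf5 encodes a transcription factor of the same family, and its mRNA has an upstream reading frame arrangement like that of Atf4. Its estimate was highest on day 1, and the change of effect between days did not pass the test. On day 1 Atf5 stood at 10.64, 11.04, 11.47 and 11.30 in metformin rats, against 10.62, 10.01, 10.03 and 9.76 in control rats. On day 3 it stood at 10.46, 10.54, 10.71 and 10.41 in metformin rats, against 9.72, 10.15, 10.10 and 10.34 in control rats. By day 14 the levels were 9.96, 9.90, 10.39 and 9.95 in metformin rats, against 9.99, 10.22, 9.70 and 9.31 in control rats. Metformin and control groups were separate on days 1 and 3 and overlapped on day 14. Over the 3 days Atf5 differed by 0.57 ± 0.12 (SE, adjusted p = 0.0101), or 1.48-fold. On day 1 it was 1.00 ± 0.20 (SE), or 2.01-fold, with an adjusted p of 0.119.

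Atf4 encodes the transcription factor that gives this arm its name. On day 1 Atf4 stood at 8.69, 8.91, 9.19 and 9.06 in metformin rats, against 9.36, 8.98, 9.35 and 8.40 in control rats. By day 3 Atf4 was at 9.80, 9.95, 9.70 and 9.57 in metformin rats, against 9.11, 9.76, 9.48 and 9.17 in control rats. After 14 days the values were 9.93, 10.04, 9.11 and 9.10 in metformin rats, against 8.48, 9.80, 9.44 and 9.32 in control rats. The groups overlapped on all 3 days, and on day 14 both groups spanned more than the difference between their means. The log2 difference over the 3 days was 0.20 ± 0.15 (SE, adjusted p = 0.587), with -0.06 on day 1, 0.37 on day 3 and 0.28 on day 14.

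Ddit3 encodes CHOP, a C/EBP-family factor tied to cell death under lasting stress. On day 1 Ddit3 stood at 6.95, 6.89, 7.00 and 7.00 in metformin rats, against 6.78, 6.55, 7.16 and 7.25 in control rats. On day 3 it was at 7.35, 7.52, 7.49 and 7.29 in metformin rats, against 7.11, 7.21, 7.15 and 7.12 in control rats. By day 14 it was at 7.26, 6.92, 7.39 and 6.60 in metformin rats, against 7.06, 7.52, 7.23 and 7.14 in control rats. The day 3 groups were separate, and the groups overlapped on the other days. Its difference was 0.26 on day 3 (adjusted p = 0.44) and 0.03 ± 0.09 (SE, adjusted p = 0.911) over the 3 days. The other 3 regulators were not called. Cebpg, a dimer partner of ATF4, differed by 0.17 over the 3 days, Cebpb by 0.05 and Atf3 by 0.04. Of these, Cebpg had an unadjusted p of 0.0188 (adjusted p = 0.191).

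None of the 7 feedback and signalling genes rose over the 3 days, and Sesn2 fell on day 14. Sesn2 encodes sestrin 2, a leucine sensor and inhibitor of mTORC1 signalling. On day 1 Sesn2 stood at 10.86, 10.26, 11.33 and 10.96 in metformin rats, against 10.90, 10.03, 10.54 and 10.93 in control rats. By day 3 Sesn2 was at 10.43, 10.84, 11.68 and 11.62 in metformin rats, against 10.72, 11.45, 10.84 and 11.86 in control rats. After 14 days its levels were 10.76, 9.66, 10.03 and 9.70 in metformin rats, against 11.58, 10.91, 11.25 and 11.68 in control rats. All 4 metformin rats of day 14 lay below all 4 controls, while the groups overlapped on days 1 and 3. The log2 change was -1.32 ± 0.32 (SE, adjusted p = 0.0248) on day 14, a 2.49-fold lower level, and -0.38 ± 0.18 over the 3 days (adjusted p = 0.314).

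Trib3 encodes a pseudokinase that binds ATF4 and limits its activity, and it did not pass on any day. On day 1 Trib3 stood at 6.29, 6.44, 6.65 and 6.29 in metformin rats, against 6.99, 6.44, 6.57 and 5.90 in control rats. By day 3 Trib3 was at 6.55, 6.79, 6.74 and 6.47 in metformin rats, against 6.23, 6.72, 6.28 and 6.42 in control rats. After 14 days Trib3 was at 6.80, 6.76, 6.49 and 6.63 in metformin rats, against 6.45, 6.87, 6.62 and 6.51 in control rats. Metformin and control values overlapped on all 3 days, and the day 1 controls spanned both the highest and the lowest of the 24 values. Over the 3 days Trib3 differed by 0.08 ± 0.09 (SE, adjusted p = 0.766). Ddit4, which encodes the mTORC1 inhibitor REDD1, differed by 0.39 on day 3 (adjusted p = 0.137) and by 0.21 over the 3 days (adjusted p = 0.0867). Chac1, which encodes a glutathione-degrading enzyme, differed by 0.61 on day 3 (adjusted p = 0.172) and by -0.35 on day 1. Ppp1r15a, the stress-induced subunit of the eIF2 alpha phosphatase, differed by 0.03 over the 3 days and by -0.11 on day 14 (adjusted p = 0.638). Eif4ebp1, a repressor of cap-dependent translation, differed by 0.02, and Vldlr, a lipoprotein receptor, by 0.08.

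Of the 10 amino acid and one-carbon genes, Asns and Psph rose over the 3 days. Asns encodes asparagine synthetase, which makes asparagine from aspartate and glutamine. On day 1 Asns stood at 7.03, 7.86, 8.87 and 8.89 in metformin rats, against 8.59, 6.11, 6.63 and 6.77 in control rats. By day 3 Asns was at 7.58, 7.57, 8.45 and 7.66 in metformin rats, against 7.06, 6.89, 6.84 and 7.10 in control rats. After 14 days Asns was at 6.89, 7.16, 7.05 and 6.94 in metformin rats, against 6.17, 6.14, 6.65 and 6.57 in control rats. The groups did not overlap on days 3 and 14, and on day 1 control replicate 1 reached the metformin range. Its log2 difference over the 3 days was 0.87 ± 0.23 (SE, adjusted p = 0.0397), or 1.82-fold. On day 1 it was 1.14 with all rats and 1.66 without control replicate 1 (adjusted p = 0.413 and 0.0892).

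Psph encodes phosphoserine phosphatase, the last step of serine synthesis. On day 1 Psph stood at 7.90, 8.15, 8.00 and 8.30 in metformin rats, against 7.98, 7.76, 7.83 and 7.35 in control rats. By day 3 Psph was at 7.75, 8.05, 7.80 and 7.94 in metformin rats, against 7.59, 7.17, 7.26 and 7.50 in control rats. After 14 days Psph was at 7.52, 7.68, 7.72 and 7.34 in metformin rats, against 7.31, 7.28, 7.36 and 6.95 in control rats. The groups were separate on day 3, and on days 1 and 14 the lowest metformin rat lay below the highest control. The difference was 0.40 ± 0.08 (SE, adjusted p = 0.00613) over the 3 days, a 1.32-fold higher level, with estimates of 0.36, 0.51 and 0.34 on days 1, 3 and 14.

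The other 8 amino acid and one-carbon genes did not pass over the 3 days. Psat1 and Phgdh encode the enzymes that precede Psph in serine synthesis, and they differed by 0.89 ± 0.39 (SE, adjusted p = 0.262) and 0.35 ± 0.12 (SE, adjusted p = 0.128). Psat1 had the widest range of the members over the 24 arrays, and its values are given for that reason, chosen after they were seen. It stood at 8.49, 8.41, 8.99 and 10.70 in metformin rats, against 11.43, 6.48, 7.16 and 7.82 in control rats on day 1. On day 3 it ranged over 7.96 to 9.22 in metformin rats, against 6.78 to 7.61 in control rats, without overlap. On day 14 the groups overlapped, at 6.37 to 6.91 in metformin rats and 6.10 to 6.75 in control rats, with a difference of 0.20 (adjusted p = 0.933). Control replicate 1 of day 1 was the highest of all these rats. Without that rat Psat1 differed by 1.24 over the 3 days (adjusted p = 0.00554), Phgdh by 0.42 (adjusted p = 0.0371) and Mthfd2 by 0.43 (adjusted p = 0.0233), and all were then called. Mthfd2 encodes a mitochondrial folate enzyme and differed by 0.32 with all rats (adjusted p = 0.23). Shmt2, its partner in mitochondrial one-carbon metabolism, differed by 0.12. Aldh18a1 and Pycr1, which make proline from glutamate, differed by 0.05 and 0.02. Pck2, the mitochondrial form of PEP carboxykinase, differed by 0.07, and Cth, which makes cysteine, by -0.09.

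Cytosolic aminoacyl-tRNA synthetases, which load amino acids onto tRNA, moved together: 8 of the 12 rose over the 3 days. All 12 log2 differences lay above 0 in that comparison, between 0.20 and 0.65 with a median of 0.334, and all 12 had an unadjusted p under 0.05. Of all genes, 2.79% were called higher there, 48% lay above 0 and 10.5% were higher at that threshold. The median of the 12 was 0.263 on day 1, when 3 of them had an unadjusted p under 0.05. It was 0.443 on day 3, when 11 did, and 0.401 on day 14, when 7 did. All of these were higher in metformin livers, as 5.75%, 7.39% and 9.49% of all genes were on days 1, 3 and 14 at that threshold. The day 1 value turned on single rats. Its median was 0.451 without control replicate 1 (9 of 12 at an unadjusted p under 0.05) and 0.377 without metformin replicate 1 (4 of 12). Of all genes, 5.38% and 6.71% were higher at that threshold in these fits. The median was 0.119 without metformin replicate 4 (1 of 12), 0.157 without control replicate 2 (1 of 12) and 0.167 without control replicate 4 (0 of 12). There, 3.72%, 3.94% and 6.19% of all genes were higher at that threshold. On day 14 metformin replicate 2 was the highest of its group for 11 of the 12, and control replicate 1 the lowest for 10. The day 14 median was 0.314 without that metformin rat (5 of 12) and 0.352 without that control rat (4 of 12). In these fits 9.02% and 7.34% of all genes were higher at that threshold. Leaving out any other rat of day 14 gave medians of 0.384 to 0.453.

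Nars1 charges asparagine, and it was the synthetase called on a single day. On day 1 Nars1 stood at 11.71, 12.04, 12.20 and 12.32 in metformin rats, against 12.40, 11.62, 12.03 and 11.38 in control rats. By day 3 Nars1 was at 12.16, 12.74, 12.57 and 12.57 in metformin rats, against 11.65, 11.89, 11.65 and 11.54 in control rats. After 14 days Nars1 was at 12.24, 12.78, 12.37 and 12.43 in metformin rats, against 11.42, 11.92, 12.02 and 11.70 in control rats. The groups were separate on days 3 and 14 and overlapped on day 1. The log2 difference was 0.69 ± 0.19 (SE, adjusted p = 0.048) on day 14 and 0.57 ± 0.11 (SE, adjusted p = 0.00608) over the 3 days, a 1.49-fold higher level. The day 14 call was lost with cyclic loess, median centring, no filter, every probe set tested, the arrays of that day alone or the replicate block (adjusted p up to 0.156), and the call over the 3 days was not.

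Iars1 charges isoleucine and had the highest mean difference of the 12. On day 1 Iars1 stood at 11.09, 11.25, 11.63 and 11.73 in metformin rats, against 11.96, 10.70, 11.13 and 10.67 in control rats. By day 3 Iars1 was at 11.29, 11.88, 12.25 and 11.72 in metformin rats, against 10.82, 10.99, 11.04 and 10.72 in control rats. After 14 days Iars1 was at 11.29, 11.72, 11.35 and 11.21 in metformin rats, against 10.60, 10.63, 10.55 and 10.85 in control rats. Metformin rats of days 3 and 14 all lay above their controls, and on day 1 the highest rat was control replicate 1. Over the 3 days Iars1 differed by 0.65 ± 0.13 (SE, adjusted p = 0.00858), and a second Iars1 probe set gave 0.60 (adjusted p = 0.0476 over every probe set).

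Cars1 charges cysteine. On day 1 Cars1 stood at 8.42, 8.78, 8.85 and 9.23 in metformin rats, against 9.84, 8.23, 8.43 and 7.85 in control rats. By day 3 Cars1 was at 9.10, 9.22, 9.29 and 9.23 in metformin rats, against 8.11, 8.62, 8.22 and 8.29 in control rats. After 14 days Cars1 was at 8.44, 9.26, 8.65 and 8.73 in metformin rats, against 7.91, 8.28, 8.08 and 8.07 in control rats. The groups were separate on days 3 and 14, and control replicate 1 was again the highest rat of day 1. Cars1 differed by 0.60 ± 0.16 (SE, adjusted p = 0.0384) over the 3 days.

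Yars1 charges tyrosine. On day 1 Yars1 stood at 9.99, 10.12, 10.42 and 10.58 in metformin rats, against 10.48, 9.68, 10.06 and 9.57 in control rats. By day 3 Yars1 was at 10.37, 10.46, 10.32 and 10.08 in metformin rats, against 9.63, 9.82, 9.82 and 9.62 in control rats. After 14 days Yars1 was at 9.96, 10.85, 10.09 and 9.90 in metformin rats, against 9.36, 9.56, 9.80 and 9.57 in control rats. Groups were separate on days 3 and 14, and on day 14 metformin replicate 2 exceeded the other rats. Over the 3 days Yars1 differed by 0.52 ± 0.11 (SE, adjusted p = 0.0138).

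Mars1 charges methionine, on the initiator tRNA as well. On day 1 Mars1 stood at 10.28, 10.64, 11.10 and 10.97 in metformin rats, against 10.91, 10.14, 10.44 and 9.95 in control rats. By day 3 Mars1 was at 10.72, 10.83, 10.66 and 10.77 in metformin rats, against 10.29, 10.43, 10.22 and 10.28 in control rats. After 14 days Mars1 was at 10.44, 10.76, 10.62 and 10.60 in metformin rats, against 10.13, 10.25, 10.33 and 10.29 in control rats. The groups were separate on days 3 and 14 and overlapped on day 1. Mars1 differed by 0.39 ± 0.09 (SE, adjusted p = 0.0219) over the 3 days.

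Lars1 charges leucine and also acts as a leucine sensor for mTORC1. On day 1 Lars1 stood at 10.32, 10.50, 10.73 and 10.79 in metformin rats, against 10.61, 10.00, 10.37 and 9.84 in control rats. By day 3 Lars1 was at 10.51, 10.65, 10.79 and 10.75 in metformin rats, against 10.20, 10.30, 10.12 and 10.19 in control rats. After 14 days Lars1 was at 10.24, 10.50, 10.23 and 10.15 in metformin rats, against 10.03, 10.12, 10.13 and 10.17 in control rats. The groups were separate on day 3 alone. Lars1 differed by 0.34 ± 0.08 (SE, adjusted p = 0.0161) over the 3 days.

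Gars1 charges glycine, and Wars1 charges tryptophan. On day 1 Gars1 stood at 11.88, 12.05, 12.35 and 12.37 in metformin rats, against 12.34, 11.75, 11.73 and 11.66 in control rats. By day 3 Gars1 was at 12.24, 12.10, 12.32 and 12.28 in metformin rats, against 11.67, 11.71, 11.90 and 11.94 in control rats. After 14 days Gars1 was at 11.81, 12.12, 11.68 and 11.64 in metformin rats, against 11.50, 11.53, 11.70 and 11.63 in control rats. Its groups were separate on day 3 alone, and the difference over the 3 days was 0.31 ± 0.08 (SE, adjusted p = 0.0297). On day 1 Wars1 stood at 8.90, 8.85, 8.88 and 8.99 in metformin rats, against 8.56, 8.77, 8.86 and 8.86 in control rats. By day 3 Wars1 was at 8.69, 9.28, 9.10 and 9.27 in metformin rats, against 8.75, 8.80, 8.91 and 8.62 in control rats. After 14 days Wars1 was at 9.22, 9.57, 9.02 and 8.99 in metformin rats, against 8.60, 8.66, 8.98 and 8.78 in control rats. Its groups were separate on day 14 alone, and the difference over the 3 days was 0.30 ± 0.07 (SE, adjusted p = 0.0288). The remaining synthetases were not called, with differences of 0.33 for Sars1 (serine), 0.28 for Tars1 (threonine), 0.22 for Eprs1 (glutamate and proline) and 0.20 for Aars1 (alanine). Their adjusted p lay between 0.0881 and 0.209.

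**Figure D2:**
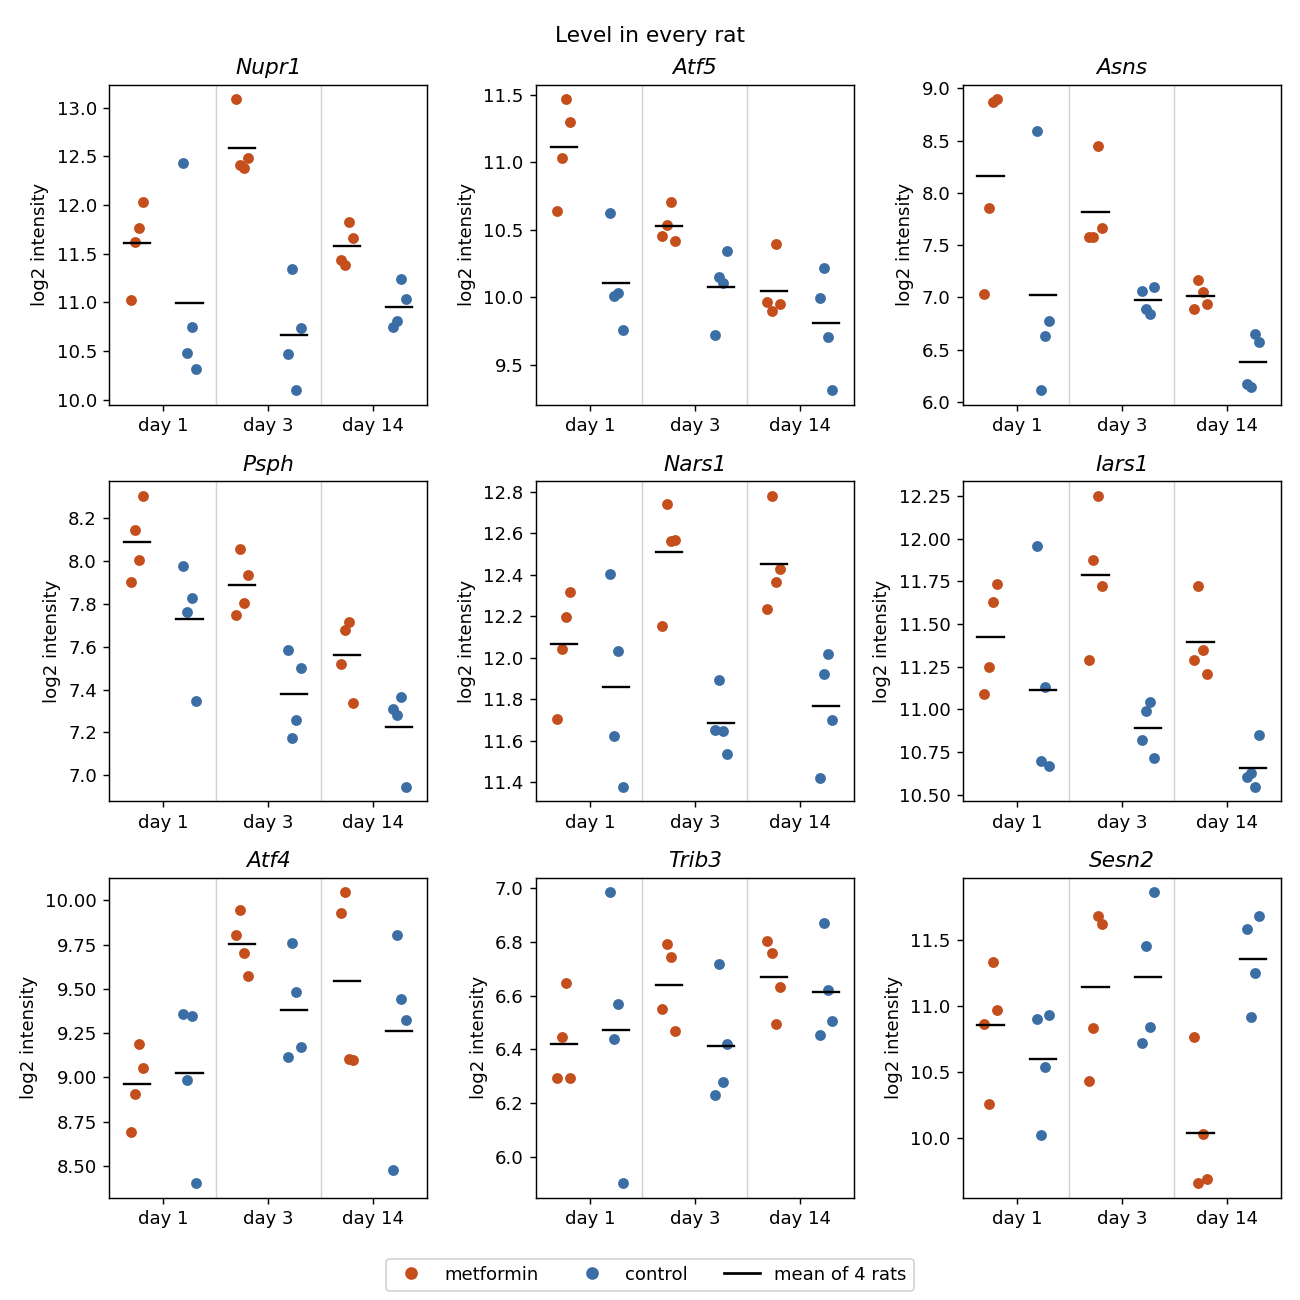
Log2 intensity of 9 members in every rat, metformin left of control on each day, with a line at the mean of the 4 rats. Nupr1, Asns, Nars1 and Iars1 are separate between the groups on days 3 and 14, Atf4 and Trib3 overlap on every day, and Sesn2 lies lower in metformin livers on day 14.

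Several of the 12 calls over the 3 days depended on single rats. In all 24 fits that each left out 1 rat, Nupr1, Atf5, Psph, Nars1, Iars1, Yars1, Mars1 and Lars1 were called. Wars1 lost its call without control replicate 1 of day 1, replicate 4 of day 3 or replicate 1 of day 14, and without metformin replicate 4 of day 1 or replicates 2 or 4 of day 3, with adjusted p of up to 0.0602. Gars1 lost it without metformin replicates 3 or 4 of day 1, 3 or 4 of day 3 or 2 of day 14, and without control replicates 2 or 4 of day 1, 1 of day 3 or 1 of day 14 (adjusted p up to 0.0627). Cars1 kept it in 8 of 24 fits, those without metformin replicate 1 of any day or replicate 4 of day 14, or without control replicate 1 of day 1, replicate 2 of day 3 or replicates 2 or 3 of day 14 (adjusted p up to 0.0811 in the others). Asns kept it in 6 of 24, those without metformin replicate 1 of any day or replicate 2 of day 1, or without control replicate 1 of day 1 or replicate 3 of day 14 (adjusted p up to 0.0834 in the others). The log2 differences in these fits ranged over 0.26 to 0.34 for Wars1, 0.28 to 0.37 for Gars1, 0.52 to 0.74 for Cars1 and 0.77 to 1.04 for Asns. Without control replicate 1 of day 1, 15 members were called: Psat1, Phgdh, Mthfd2 and Aars1 joined and Wars1 dropped out. Over all 19686 genes, 551 were called in that fit. In that fit Aars1 differed by 0.25 (adjusted p = 0.0121), Wars1 by 0.28 (adjusted p = 0.0518), Psat1 by 1.24, Phgdh by 0.42 and Mthfd2 by 0.43. Sars1 joined without metformin replicate 1 of day 1 (log2 difference 0.37, adjusted p = 0.044), and Ddit4 joined without metformin replicate 2 of day 3 (0.24, adjusted p = 0.0464).

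Calls on single days also depended on single rats. Nupr1 on day 3 kept its call without metformin replicate 1 or control replicate 2 and lost it without any other rat of that day (log2 change 1.74 to 2.15, adjusted p up to 0.0888). Sesn2 on day 14 kept it without metformin replicate 1 or control replicates 2 or 3 and lost it otherwise (log2 change -1.56 to -1.19, adjusted p up to 0.0936). Nars1 on day 14 kept it without metformin replicate 1 or control replicate 3 and lost it otherwise (log2 change 0.57 to 0.77, adjusted p up to 0.183). Atf5 was called on day 1 without metformin replicate 1 (1.16, adjusted p = 0.0352). Without metformin replicate 1 of day 3, Nars1 (0.94, adjusted p = 0.0162) and Iars1 (1.06, adjusted p = 0.0209) were called on day 3. Wars1 was called on day 14 without control replicate 3 (0.52, adjusted p = 0.036).

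**Figure D3:**
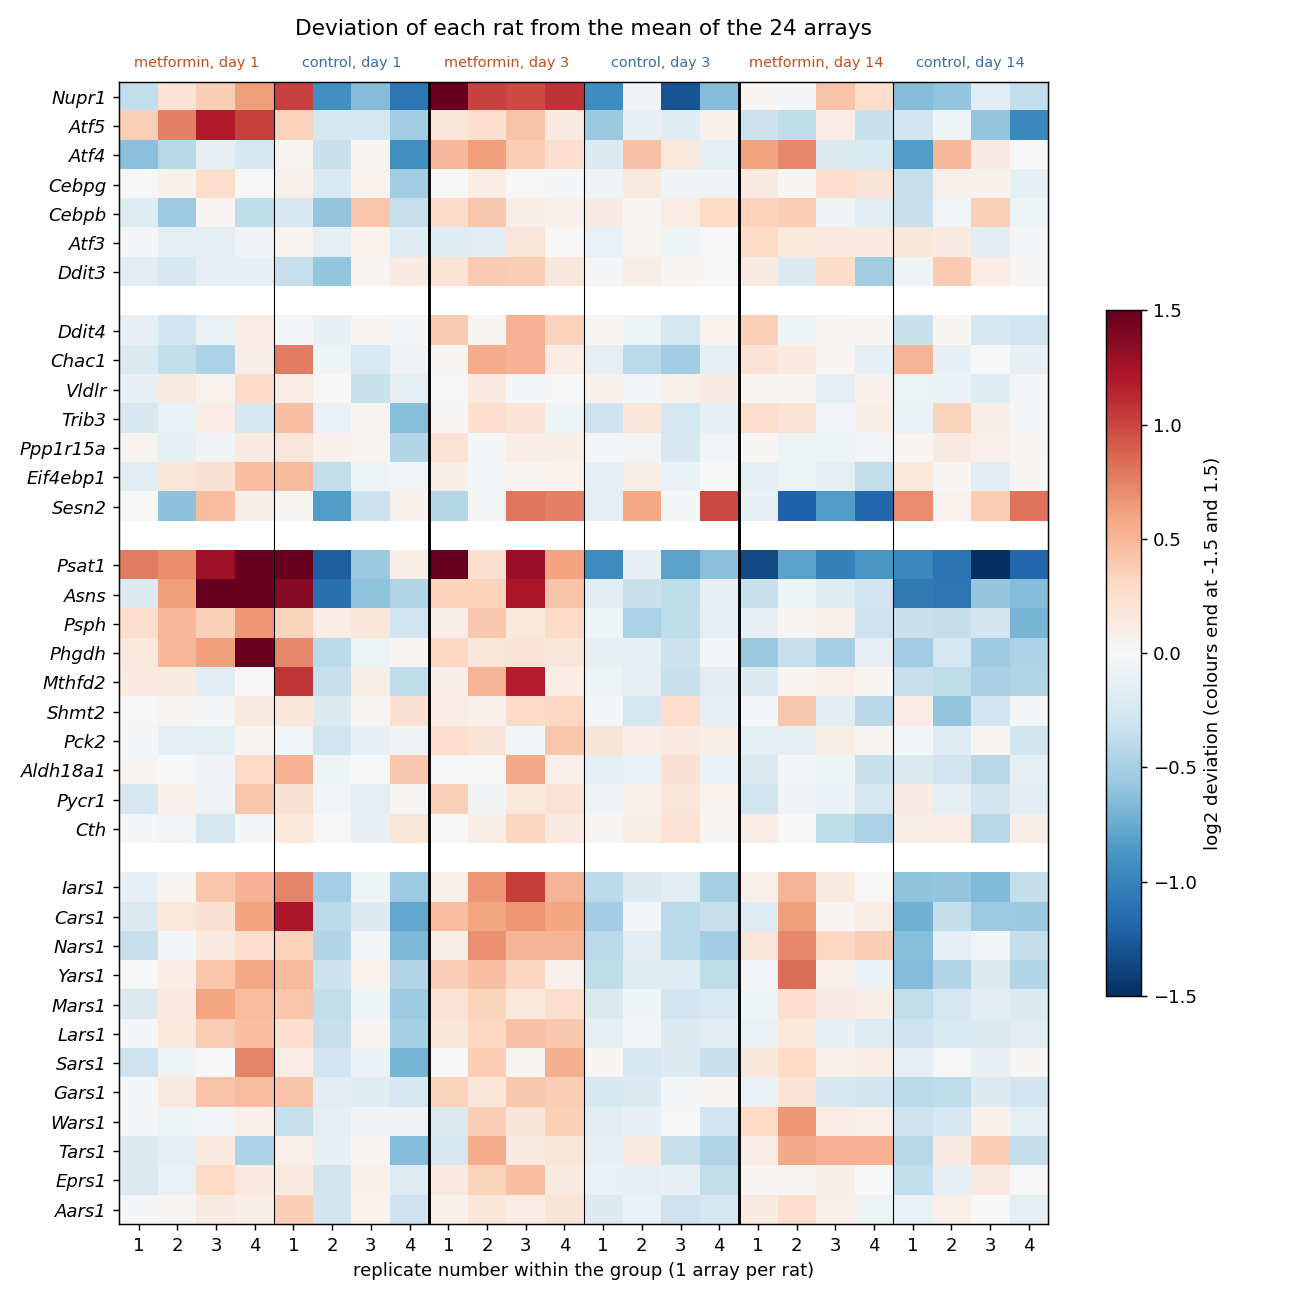
Deviation of every rat from the mean of the 24 arrays (log2, colour) for the 36 members, with rats in columns by group and genes in rows by role. Red marks higher and blue lower levels: the day 3 metformin rats are red for most synthetases, and control replicate 1 of day 1 is red for most members.

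The effect of metformin was not shown to differ between days for any member. The change of effect by day 3 relative to day 1 was called for 0 genes in all (0%) by limma, and 5 members had an unadjusted p under 0.05, all higher on day 3, where 4.31% of all genes were higher and 6.36% lower at that threshold. These were Chac1 (0.95 on the log2 scale, adjusted p = 0.235), Nupr1 (1.31), Ddit4 (0.47), Mthfd2 (0.73) and Nars1 (0.62). For day 14 relative to day 1, 1.66% of all genes and none of the members were called. Sesn2 came nearest with -1.57 ± 0.45 (SE, adjusted p = 0.0772), and it was called without metformin replicate 1 of day 14 (-1.81, adjusted p = 0.0279). Atf5 (-0.76) and Ddit4 (0.38) also had an unadjusted p under 0.05, as did 14.1% of all genes. For day 14 relative to day 3, 0.00508% of all genes and no member were called. Nupr1 (-1.31), Sesn2 (-1.24), Chac1 (-0.61) and Ddit3 (-0.46) had an unadjusted p under 0.05 there, as did 7.54% of all genes.

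Control livers were also compared across days. No member was called between day 3 and day 1, where 0% of all genes were and 3 members had an unadjusted p under 0.05, as did 4.71% of all genes. None was called between day 14 and day 1, where 1.82% of all genes were, nor between day 14 and day 3, where 0.889% were. Between day 14 and day 1, 5 of the 10 amino acid and one-carbon genes had an unadjusted p under 0.05 and were lower on day 14, where 5.74% of all genes were. The smallest adjusted p was 0.0573, for Psph, whose controls differed by -0.50 on the log2 scale. It was called without control replicate 4 of day 1 (-0.63, adjusted p = 0.0106), and Aldh18a1 was called without control replicate 2 of day 1 (-0.58, adjusted p = 0.0385). Replicate 1 of the day 1 controls was the highest of its group for 8 of the 10 amino acid and one-carbon genes. Without that rat no member was called, and how many were then lower at an unadjusted p under 0.05 was not counted.

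Within groups, Trib3 and most synthetases correlated with Atf4 across rats before adjustment, and no correlation passed after it. The deviation of each member from its group mean was set against that of Atf4 over the 24 rats, with 100000 permutations of rats within groups. Of 35 members, 29 correlated above 0 and 13 had an unadjusted permutation p under 0.05, where 10.1% of all genes had. Trib3 had the highest correlation (r = 0.74, permutation p = 0.0001, rho = 0.772, permutation p = 0.00012), and r was 0.69 without the 2 rats farthest from the median of Atf4. Yars1 followed with r = 0.67 (permutation p = 0.00093, rho = 0.673, permutation p = 0.00117) and r = 0.63 without those rats. Across the 12 synthetases r ranged over 0.32 to 0.673, 10 had an unadjusted permutation p under 0.05, and without the 2 rats r ranged over 0.254 to 0.631. In metformin rats alone (12 rats) r of the synthetases ranged over -0.0363 to 0.763, and in control rats alone (12 rats) over 0.13 to 0.831. Asns (r = 0.26), Nupr1 (r = 0.32), Psph (r = 0.21) and Atf5 (r = 0.23) were called over the 3 days, and their correlations had a permutation p of 0.271, 0.195, 0.403 and 0.391. After adjustment over all 19685 genes set against Atf4, no member and no other gene passed (smallest adjusted p of a member 0.25). The smallest p that 100000 permutations can give does not let 1 gene alone pass this adjustment at 0.05.

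**Figure D4:**
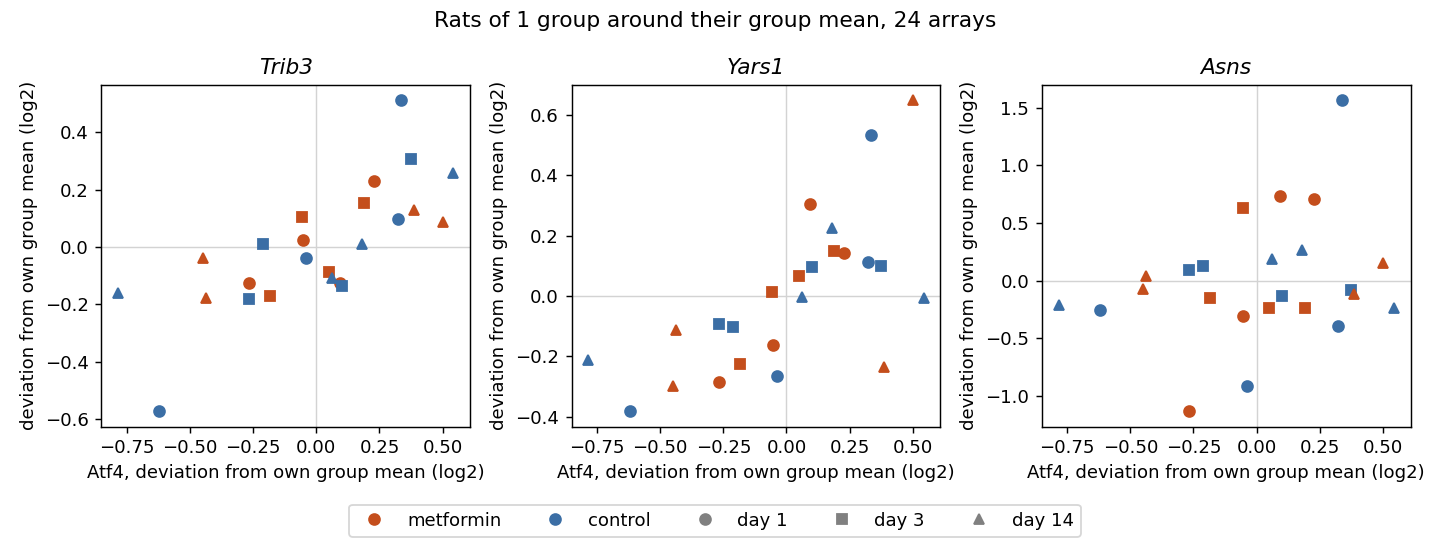
Deviation of each of the 24 rats from its group mean (log2) for Atf4 on the x axis and Trib3, Yars1 or Asns on the y axis, with colour for treatment and shape for day. Trib3 and Yars1 lie along a rising band (r = 0.74 and 0.67), and Asns scatters (r = 0.26).

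Genes around this pathway moved unevenly over the 3 days. Of all genes, 2.79% were called higher in that comparison, and 10.5% were higher at an unadjusted p under 0.05 in limma. Of the cytosolic synthetases outside the 36, 4 of 6 measured genes were called higher: Hars1 (0.45), Farsb (0.26), Farsa (0.23) and Rars1 (0.37), with adjusted p between 0.00504 and 0.0165. Of the mitochondrial synthetases, 0 of 16 were called by limma, 15 lay above 0 with a median of 0.113, and 3 had an unadjusted p under 0.05. Rars2 was called higher on day 14 alone (0.42 ± 0.11, SE, adjusted p = 0.0384). Of the 6 cytosolic synthetases outside the 36, Farsb and Rars1 were called higher that day, where 407 of all 19686 genes were. The difference between cytosolic and mitochondrial synthetases was not tested.

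The 17 genes of the eIF2 list cover the 4 eIF2 alpha kinases, the phosphatase subunit Ppp1r15b and subunits of eIF2 and eIF2B. Dele1, Oma1, Gcn1 and Impact are also in the list. Over the 3 days 4 of them were called higher, where 2.79% of all genes were. The 4 were Eif2b3 (0.31), Eif2b1 (0.32), Eif2s1 (0.31) and Eif2s2 (0.27), subunits of eIF2B and eIF2. Eif2ak3, which encodes the endoplasmic reticulum kinase PERK, differed by 0.36 (adjusted p = 0.0672). Eif2ak4, the amino acid sensor GCN2, differed by 0.08, and Eif2ak2, the RNA sensor PKR, by 0.07. On day 14, Eif2b3 (0.47) and Eif2s1 (0.54) were called higher, where 407 of all 19686 genes were called higher and 241 lower. Eif2ak1, the kinase HRI, was called lower that day (-0.35 ± 0.07, SE, adjusted p = 0.00922). Its effect differed between day 14 and day 1 (-0.40 ± 0.10, SE, adjusted p = 0.0456), where 1.66% of all genes were called. Of the other lists around this pathway, Klhl24 (lower), Farsb (higher) and Creld2 (higher) were also called in that comparison.

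Further ATF4 targets outside the 36 were called in 3 of 32 cases: Xpot (0.36), which exports tRNA from the nucleus, Herpud1 (0.63) and Atg5 (0.20). They were called higher, as were 2.79% of all genes. The median of these 32 was 0.0762. Xpot was also called on day 3 (0.51 ± 0.11, SE, adjusted p = 0.0481), and Klhl24 was called lower on day 14 (-0.61 ± 0.14, SE, adjusted p = 0.0211). Fgf21 and Gdf15 encode hormones that liver releases under stress, and they differed by 0.49 ± 0.18 (SE, adjusted p = 0.165) and -0.06 ± 0.11 (SE, adjusted p = 0.854). Of 13 unfolded protein response partners, 8 were called higher, where 2.79% of all genes were. Among the 8, those with the smallest p were Creld2 (0.86), Hyou1 (0.52), Pdia4 (0.36) and Hsp90b1 (0.22), chaperones and folding enzymes of the endoplasmic reticulum. Xbp1, a transcription factor of that response, differed by -0.41 over the 3 days and -0.67 on day 14 (adjusted p = 0.205 and 0.221). On day 14, 5 of these 13 were called higher, where 407 of all 19686 genes were, with Creld2 at 1.41 ± 0.21 (SE, adjusted p = 0.00135).

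**Figure D5:**
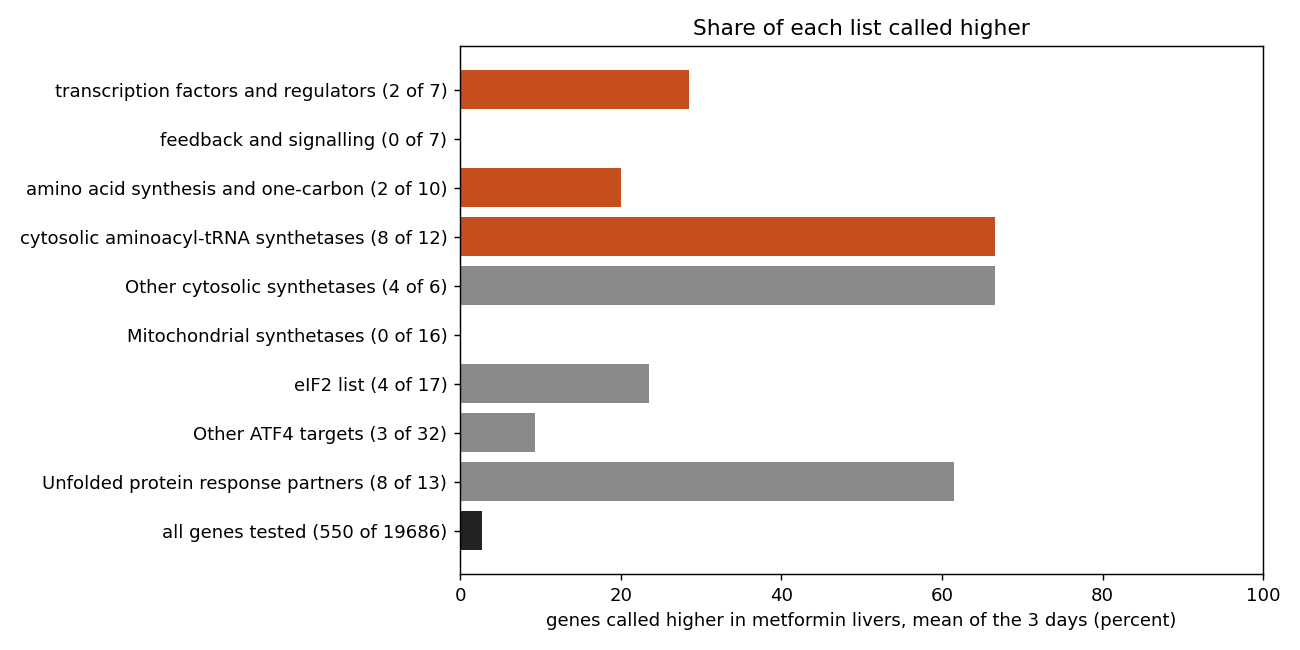
Percent of each gene list called higher in metformin livers over the 3 days (x axis), with counts beside the names. Orange bars are the 4 roles among the 36 members, grey bars other pathway lists and the black bar all genes tested. The member synthetases (8 of 12) and the other cytosolic synthetases (4 of 6) have the longest bars, and all genes tested stand at 2.79%.

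No marker of another liver cell type was called between metformin and control livers by limma, and on days 3 and 14 some lists lay lower throughout. On day 1, 8 of 9 markers of Kupffer cells and macrophages (median log2 difference 0.163), 4 of 7 stellate cell markers (0.121) and 5 of 6 sinusoidal endothelial markers (0.145) were higher. On day 3 all 9 markers of Kupffer cells and macrophages were lower, with a median log2 difference of -0.512 and 1 at an unadjusted p under 0.05. Their summed intensity was 10326 to 24511 in metformin livers and 15272 to 32870 in control livers. All 7 stellate cell markers were also lower on day 3 (median -0.178), with sums of 8500 to 10183 in metformin livers and 8902 to 14438 in control livers. On day 14 all 9 Kupffer cell markers were again lower (median -0.154). All 6 sinusoidal endothelial markers were also lower that day (median -0.296), with sums of 8940 to 15643 in metformin livers and 10294 to 18453 in control livers. Hepatocyte markers had a median of 0.0126 on day 3 and -0.0899 on day 14. The median difference on day 3 was -0.129 for 5 cholangiocyte markers, -0.0783 for 5 tested lymphocyte markers, -0.207 for 4 tested neutrophil markers, -0.324 for 4 erythroid markers, -0.127 for 7 acinar markers and -0.191 for 4 adipocyte markers. All 4 erythroid markers were lower that day. The neutrophil sums of day 3 did not overlap, at 107.3 to 123.2 in metformin livers and 124.9 to 154.2 in control livers. On day 1 all 5 cholangiocyte markers were higher. Their sums did not overlap, at 448.1 to 499.4 in metformin livers and 363.0 to 430.5 in control livers. Hepatocyte sums on day 14 were 2816250 to 3106400 in metformin livers and 3119310 to 3160140 in control livers. The part of these shifts in the members' differences was not tested.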

How the data were processed

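Each of 24 Affymetrix arrays held the liver RNA of 1 rat. The deposited table holds linear intensity values of 68842 probe sets, which the authors made with RMA, per the submitters' processing notes. No source used here names the software, its version or a later change of scale, so fold changes hold on the deposited scale. The log2 of each deposited intensity was taken. Of the probe sets, 23446 had 1 symbol, 505 several and 44891 none. A gene with several probe sets was read from the one with the highest mean, and Nupr1, Aldh18a1 and Iars1 had 2 each. Genes above the 30th percentile of all values (log2 4.28) in 4 or more arrays entered the tests, 19686 in all.

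limma 3.58.1 in R 4.3.3 was fitted with 1 mean per group over all 24 arrays (lmFit, contrasts, eBayes), with Benjamini-Hochberg adjustment over all genes tested within each comparison. The procedure was tested on simulated data. Correlations with Atf4 were computed in Python 3.11.15 with NumPy 2.4.6, and adjustment over all genes was used in place of the adjustment over members first planned. Promoter windows came from RefSeq on GRCr8. The members and lists were chosen with earlier results of these data known. Values in every rat are given for members called in any treatment comparison and for Atf4, Ddit3, Trib3, Asns and Nupr1. Of other lists, at most 4 called genes per comparison are named, besides the eIF2 alpha kinases, Fgf21 and Gdf15. The p-values measure the spread between these rats, the number of arrays limits the precision, and cage was not modelled. Alternatives covered normalization, filters, probe set choice, the variance model, pseudogene symbols, the arrays fitted, a replicate block and leaving out each rat.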

Additional observations from a re-analysis of the deposited data

Results flagged for a closer look

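In 14 of the 216 groups of 4 values (36 members in 6 groups), 1 rat lay far from the other 3, with a gap to its nearest neighbour above Dixon's critical value as a share of the group's range. Chance gives about 1 in 20 such groups. In metformin livers, Atf5 was high in replicate 3 of day 14 (10.39, next 9.96, gap 0.867 of the range), and Atf3 in replicate 1 of that day (5.70, next 5.57, gap 0.899). On day 3, Nupr1 was high in metformin replicate 1 (13.08, next 12.48, gap 0.861). Metformin replicate 3 of day 3 was high in Asns (8.45, next 7.66, gap 0.901) and in Aldh18a1 (6.87, next 6.39, gap 0.857). Metformin replicate 1 of day 14 was low in Mthfd2 (4.81, next 5.05, gap 0.842) and in Tars1 (13.24, next 13.64, gap 0.893). Cth was low in metformin replicate 3 of day 1 (18.79, next 19.00, gap 0.967). In control livers, Cth was low in replicate 3 of day 14 (18.62, next 19.13, gap 0.987), and Gars1 was high in replicate 1 of day 1 (12.34, next 11.75, gap 0.873). On day 3 of the controls, Cebpg was high in replicate 2 (6.67, next 6.48, gap 0.957) and Aldh18a1 in replicate 3 (6.53, next 6.22, gap 0.842). Ppp1r15a was low in that replicate 3 (4.74, next 4.94, gap 0.862), and Eprs1 was low in replicate 4 (13.69, next 13.93, gap 0.880).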

How the results depend on the processing

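The direction of no called member reversed under any alternative. Over 8244 recomputed values of single members, 90 lost a call, 19 gained one, and 258 differed in sign where neither value was called. On day 3, 2 members were called with each array centred on its median, 0 with every probe set tested and 0 with the arrays of that day alone, against 1 as reported. On day 14, 1 was called with median centring, 1 without the filter, 0 with every probe set and 0 with that day's arrays alone, against 2. Over the 3 days, 5 were called with every probe set, against 12. The 7 lost there were Asns, Cars1, Gars1, Wars1, Yars1, Mars1 and Lars1. Asns and Cars1 were also lost with quantile normalization, Cars1 and Gars1 with cyclic loess, and Wars1 with median centring. On day 14, cyclic loess lost Nars1 and gained Wars1. Over all genes, median centring called 78 higher and 1 lower on day 3, against 48 and 2 as reported. On day 14 it called 150 higher and 133 lower and cyclic loess 432 and 232, against 407 and 241. Over the 3 days it called 409 and 33, quantile normalization 415 and 91, and cyclic loess 424 and 110, against 550 and 85. Between control days 14 and 1, median centring and the stricter filter each gave 1, against 0. There, median centring called 21 of all genes higher and 316 lower, against 51 and 308. For the filters, every probe set, fewer arrays and the replicate block, counts over all genes are not given here. Leaving out 1 rat gave 0 to 1 calls on day 1, 0 to 3 on day 3, 0 to 3 on day 14 and 8 to 15 over the 3 days. Over all genes it gave 0 to 14 calls on day 1 and 1 to 372 on day 3. It gave 153 to 968 on day 14 and 393 to 945 over the 3 days. Member calls numbered 0 to 1 for the effect of day 14 minus day 1 and 0 to 1 for control day 14 minus day 1. Over all genes these numbered 137 to 547 and 243 to 348. Testing every probe set raises the number of tests, and fitting fewer arrays lowers the residual degrees of freedom. The cause of the other changes was not tested. The correlations with Atf4 at an unadjusted p under 0.05 numbered 13, and 0 passed when adjusted over all genes, an alternative chosen after seeing the data. Metformin and control rats with the same replicate number correlated with r of -0.0536 to 0.0939 in their deviations, so the numbers are not shown to pair rats. With the replicate block, 1 member was called on day 14, and Asns and Cars1 lost their calls over the 3 days. Depth is set by signal over background, and all members lay above the floor of log2 4.28. Some lay low: over the 24 arrays the means were 4.98 for Ppp1r15a, 5.02 for Mthfd2, 5.25 for Chac1, 5.35 for Vldlr and 5.41 for Atf3. Array medians were 4.80 to 5.11, so changes of these members may be measured less well.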
